A study of Mus musculus with 78 samples.

Results

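Neutrophil and acute-phase inflammation genes were followed in mouse flank tissue: Saa3, S100a8, S100a9, Il1b, Il6, Cxcl1, Cxcl5, Csf3r, Ptgs2 and Lcn2. They were found on the array as every probe set whose single gene symbol is 1 of these names, which gave 10 of 18194 genes and 13 of 45101 probe sets. Cxcl1 had 3 probe sets, Ptgs2 had 2 and the other 8 genes had 1 each. All 10 genes passed the filter on low signal, although Cxcl5 and Il6 did so through the arrays on which they were bright: Cxcl5 exceeded the filter on 31 of 78 arrays and Il6 on 35. Levels are given as log2(signal + 16), and a level of 8.44 marks the filter. A level is compared only within a probe set, since different probe sets hybridise with different strength.

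The tissue came from female athymic nude mice (Crl:NU(NCr)-Foxn1nu) aged 4 to 6 weeks. Athymic nude mice carry the Foxn1nu allele and lack a thymus, so they have few mature T cells, in the control as in every other group. An adenovirus carrying VEGF-A164 (Ad-VEGF-A164) had been placed into the skin of the ears and flank of the same animals, where it drives the growth of abnormal vessels that stand in for those of tumours. Virus-injected mice were left untreated, or received 20 mg/kg of DC101, which is a rat antibody that blocks mouse VEGFR2, or 10 mg/kg of G6, both into the peritoneal cavity. The labels count both among antibodies to VEGF receptors and name no target for G6 on its own. Untreated, G6 and DC101 flank was profiled at days 5, 20 and 60 with 8 arrays each, except DC101 at day 60 with 6, and 8 arrays of control flank carried day 0. The labels say neither whether the day counts treatment or harvest, nor whether the control flank had been injected, and none of these groups is labelled as given an empty vector, so VEGF and the virus that carries it cannot be told apart. Each group had at least 5 animals and up to 8 arrays, with no label saying which array came from which animal. Arrays of a group may therefore share animals, in which case p-values are too small and measure in part a technical spread. Arrays are named by the running number in their titles, those of control flank as Normal_095 to Normal_102.

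In inflamed skin, interleukin-1 beta and related signals act on keratinocytes, fibroblasts and endothelium, which then make interleukin-6, prostaglandins and the CXC chemokines that draw neutrophils out of the blood. Neutrophils depend on G-CSF and its receptor for their supply. They carry the calcium-binding proteins S100A8 and S100A9, which stressed keratinocytes also make in large amounts. Acute-phase proteins are known as products of the liver, but serum amyloid A3 and lipocalin 2 are also made in the inflamed tissue itself. In bulk tissue, fewer cells of a type and less RNA per cell cannot be told apart.

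The promoters of 6 of the genes are shown because they carry the main patterns: Saa3, S100a8 and S100a9 were highest in G6-treated tissue at day 20 or in day 5 tissue, Il6 was bright at day 5, Ptgs2 fell and rose again over the days, and Lcn2 alone was lower than in control. The windows run from 250 bases before to 50 bases after the RefSeq transcript start (GRCm38.p6), 5′ to 3′ on the strand of the gene. They lie at chr7:46715627-46715926 on the minus strand for Saa3, chr3:90668821-90669120 on the plus strand for S100a8 and chr3:90695672-90695971 on the minus strand for S100a9. Il6 lies at chr5:30012864-30013163 on the plus strand, Ptgs2 at chr1:150099781-150100080 on the plus strand and Lcn2 at chr2:32387690-32387989 on the minus strand. Capitals mark matches to 4 motifs searched on both strands.
Saa3: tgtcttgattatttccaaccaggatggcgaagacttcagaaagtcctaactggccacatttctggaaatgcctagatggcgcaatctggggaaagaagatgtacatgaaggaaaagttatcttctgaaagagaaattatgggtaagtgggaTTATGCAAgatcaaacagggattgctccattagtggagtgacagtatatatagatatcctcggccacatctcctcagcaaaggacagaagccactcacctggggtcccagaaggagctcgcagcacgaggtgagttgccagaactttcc
S100a8: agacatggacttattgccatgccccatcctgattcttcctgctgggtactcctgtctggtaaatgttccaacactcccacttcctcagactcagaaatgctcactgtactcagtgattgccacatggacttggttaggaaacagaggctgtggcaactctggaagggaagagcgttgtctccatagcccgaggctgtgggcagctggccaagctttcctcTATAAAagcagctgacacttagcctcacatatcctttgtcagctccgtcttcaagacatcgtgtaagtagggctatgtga
S100a9: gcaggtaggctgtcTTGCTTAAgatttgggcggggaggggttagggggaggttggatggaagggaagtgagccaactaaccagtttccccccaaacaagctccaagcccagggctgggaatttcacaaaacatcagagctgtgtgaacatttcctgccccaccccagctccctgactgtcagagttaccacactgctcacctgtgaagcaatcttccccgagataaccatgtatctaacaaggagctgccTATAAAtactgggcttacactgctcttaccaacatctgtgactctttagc
Il6: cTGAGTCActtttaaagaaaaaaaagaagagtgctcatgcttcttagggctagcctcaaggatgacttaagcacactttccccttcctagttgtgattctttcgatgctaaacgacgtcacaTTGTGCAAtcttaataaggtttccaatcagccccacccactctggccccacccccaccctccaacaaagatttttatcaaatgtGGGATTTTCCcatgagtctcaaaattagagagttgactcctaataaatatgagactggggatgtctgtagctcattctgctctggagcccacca
Ptgs2: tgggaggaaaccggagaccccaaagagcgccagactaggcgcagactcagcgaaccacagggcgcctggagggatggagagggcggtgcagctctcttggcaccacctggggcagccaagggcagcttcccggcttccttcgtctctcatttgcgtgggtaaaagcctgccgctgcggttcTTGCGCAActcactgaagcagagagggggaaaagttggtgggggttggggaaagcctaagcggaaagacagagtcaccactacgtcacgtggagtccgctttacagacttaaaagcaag
Lcn2: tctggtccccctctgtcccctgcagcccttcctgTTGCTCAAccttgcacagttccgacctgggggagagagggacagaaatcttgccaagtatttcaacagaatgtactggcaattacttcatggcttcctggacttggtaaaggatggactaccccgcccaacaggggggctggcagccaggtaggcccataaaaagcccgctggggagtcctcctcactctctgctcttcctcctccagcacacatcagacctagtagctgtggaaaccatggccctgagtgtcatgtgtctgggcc
The capitals are a C/EBP motif (TTGCNNAA) in Saa3, Ptgs2 and Lcn2, a TATA box (TATAAA) in S100a8, and a C/EBP motif and the letters TATAAA in S100a9. In Il6 they are an AP-1 motif (TGANTCA), a C/EBP motif and an NF-kappaB consensus site, in that order from the 5′ end. Of the 10 genes, 9 were matched to a promoter in RefSeq, all but Cxcl5. The C/EBP motif was found in 5 of the 9 (Saa3, S100a9, Lcn2, Il6 and Ptgs2), against 10.8% of 32851 promoters of the same length. The NF-kappaB consensus was found in 3 (Cxcl1, Il6 and Csf3r) against 8.46% of all promoters, and in Cxcl1 2 matches on opposite strands overlap. The AP-1 motif was found in 1 (Il6) against 7.81%. The letters TATAAA were found in 3 (S100a8, S100a9 and Il1b) against 13.6%. They begin 30 bases before the annotated start in S100a8 and 31 before it in Il1b, but at the annotated start itself in S100a9. A match is a run of letters and was not tested as a binding site.

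**Figure D1:**
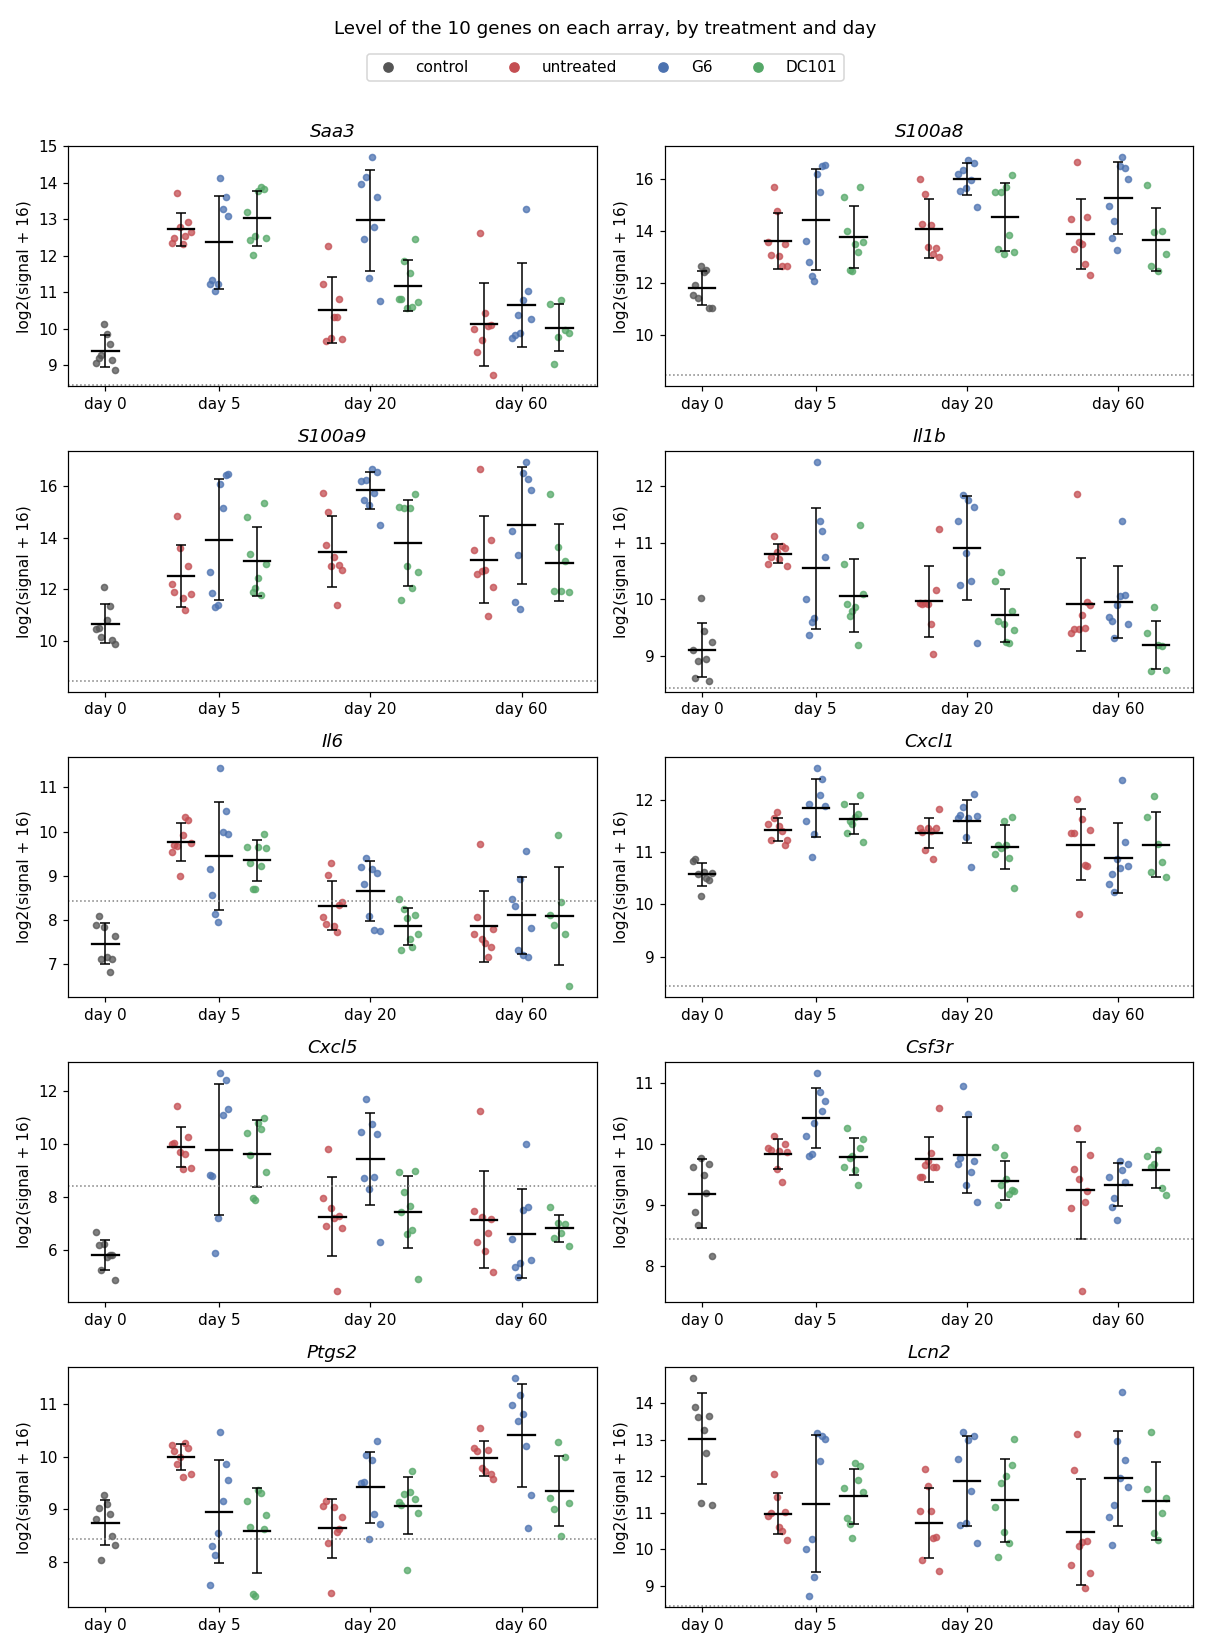
Level, as log2(signal + 16), of each of the 10 genes on every array (points), by day and coloured by treatment; bars are the group mean and SD, and the dotted line is the filter level of 8.44. At day 5 Saa3 stood at 12.33 or more on every untreated array, above every control array, and Lcn2 was the gene with its highest group mean in control tissue.

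Over all arrays, the median signal ran from 455 to 583 and the trimmed mean was 1500 on every array, so overall brightness was matched by construction. The flank label was borne out by fibroblast markers (group medians of the list mean between 14.52 and 15.33), skeletal muscle markers (14.71 to 16.30) and epidermis markers (11.77 to 14.31). Neutrophil genes were less evenly measured. Elane and Camp (granule proteins) and Cxcr2 (the receptor for CXCL1 and CXCL5) had group means under the filter level in all 10 groups. Ly6g was not measured by a single-symbol probe set. Actb probe sets gave median 3′ to 5′ signal ratios, a sign of RNA integrity, of 1.31 in control, 1.62, 1.42 and 1.88 in untreated tissue at days 5, 20 and 60, 1.76, 1.45 and 2.22 with G6, and 1.29, 1.74 and 1.30 with DC101. Gapdh probe sets gave medians of 0.796 in control and 1.03, 0.849 and 0.951 in untreated tissue, in the same order of days. They were 1.24, 0.790 and 0.847 with G6 and 0.847, 0.848 and 0.815 with DC101. These ratios moved with group, and results that change when they enter the model are named beside each gene.

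At day 5, virus-injected untreated flank had higher levels of 9 of the 10 genes than control flank and a lower level of 1, Lcn2. The median difference of the 10 genes was 1.75 on the log2 scale against 0.05 over all 14718 genes tested. All genes are judged by limma with Benjamini-Hochberg adjustment over all genes at 0.05, and 52.8% of all genes were called in this comparison, 27.9% as higher and 24.9% as lower. For 7 genes the groups did not overlap at all, against 25.7% of all genes. At day 20, 7 genes were higher and 1 lower, with a median of 0.86 against 0.05 and 41.1% of all genes called (22.7% higher, 18.4% lower), and 2 genes did not overlap (10.3% of all genes). At day 60, 4 were higher and 1 lower, with a median of 0.77 against 0.08 and 35.6% of all genes called (18.7% higher, 16.9% lower), and only Ptgs2 did not overlap (6.24% of all genes). These 3 comparisons share the 8 control arrays, all labelled day 0. No control flank was labelled day 5, 20 or 60, so virus and elapsed time cannot be told apart in them.

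**Figure D2:**
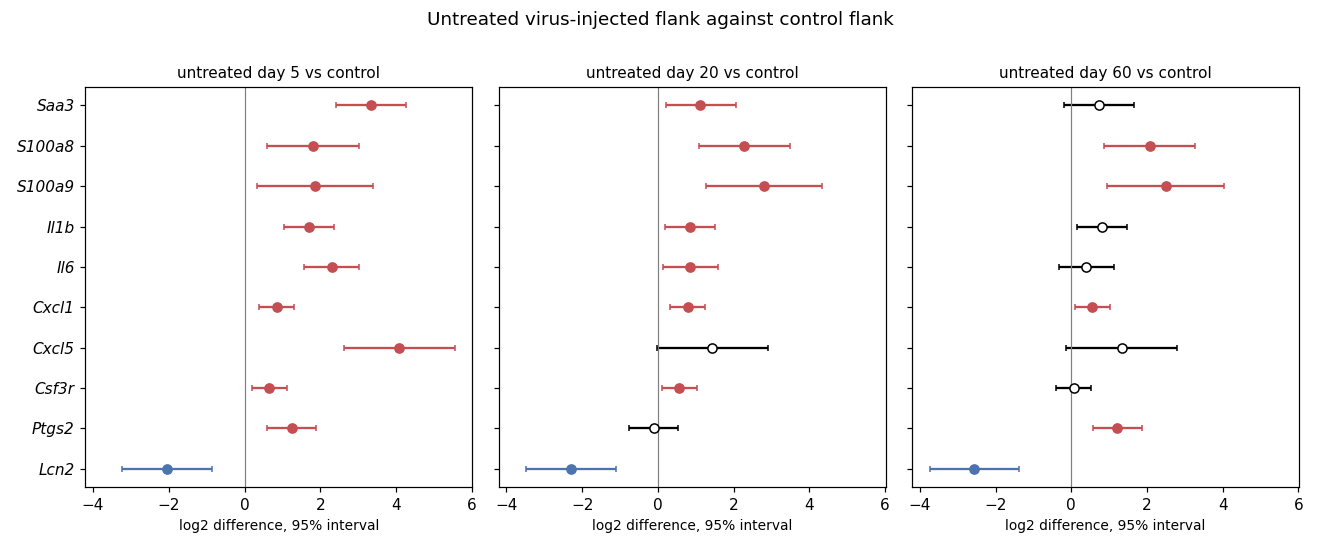
Difference in log2 level between untreated virus-injected flank and control flank for the 10 genes at days 5, 20 and 60, with 95% intervals from limma; filled points passed an adjusted p of 0.05 (red higher, blue lower), open points did not. Saa3 stood 3.34 above control at day 5, the control arrays of Cxcl5 and Il6 were not above the filter, and Lcn2 was below control at each day.

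Saa3 encodes serum amyloid A3, an acute-phase protein made locally by macrophages and epithelium. In control flank its level ran from 8.87 to 10.13 with a median of 9.23. In untreated flank the lowest, median and highest levels were 12.33, 12.58 and 13.72 at day 5, 9.66, 10.32 and 12.28 at day 20, and 8.71, 10.02 and 12.61 at day 60. So every day 5 array lay above every control array, while the later groups overlapped with control. The day 5 difference was 3.34 ± 0.46 (SE, n = 8 and 8), which is 10.1-fold, with a limma adjusted p of 6.83e-09. By day 20 it was 1.12 ± 0.46 (adjusted p = 0.0455). That call was lost without any 1 of 9 of the 16 arrays (untreated arrays 49, 51 and 55 and control arrays Normal_095, Normal_096, Normal_097, Normal_100, Normal_101 and Normal_102, with differences of 0.87 to 1.15 and adjusted p of 0.0525 to 0.143), and also under 7 other settings, among them the 3′ to 5′ ratios (0.97, 0.0761). At day 60 the difference was 0.73 (adjusted p = 0.217). Between day 5 and day 20 Saa3 fell by 2.21 (SE 0.46, adjusted p = 0.000251), and the groups did not overlap.

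With G6, Saa3 ran from 11.02 to 14.13 at day 5 (median 12.22), from 10.76 to 14.71 at day 20 (median 13.19) and from 9.74 to 13.29 at day 60 (median 10.32). With DC101 it ran from 12.02 to 13.89 (median 12.86), from 10.55 to 12.46 (median 10.81) and from 9.02 to 10.77 (median 9.92) at the same days. At day 20, then, most G6 arrays were as bright as day 5 tissue, and the DC101 arrays were not. The G6 arrays at day 20 read 13.97, 12.45, 14.15, 11.39, 14.71, 12.78, 13.61 and 10.76, and the untreated arrays 11.23, 9.66, 12.28, 9.75, 10.32, 10.31, 10.80 and 9.71. All 8 G6 arrays lay above the untreated mean, although the ranges overlapped. G6 stood 2.47 ± 0.46 above untreated tissue at day 20, which is 5.54-fold (limma adjusted p = 0.000280). At day 5 the G6 difference was -0.35 (adjusted p = 0.609), and the change in the G6 difference between these days, 2.82 ± 0.66, passed its own test (adjusted p = 0.00432). DC101 differed from untreated tissue by 0.30, 0.66 and -0.10 at days 5, 20 and 60, and none of these passed (adjusted p = 0.730, 0.416 and 0.920).

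S100a8 and S100a9 encode the subunits of calprotectin, an abundant protein of neutrophil cytoplasm and of stressed epidermis. The S100a8 level in control flank ran from 11.02 to 12.64 (median 11.73). In untreated flank it ran from 12.66 to 15.68 at day 5 (median 13.29), from 13 to 16.02 at day 20 (median 13.81) and from 12.30 to 16.64 at day 60 (median 13.54). Control tissue lay below every untreated array at days 5 and 20, and at day 60 the ranges met. The differences from control were 1.81 ± 0.60 at day 5 (adjusted p = 0.00914), 2.28 ± 0.60 at day 20 (0.00156) and 2.07 ± 0.60 at day 60 (0.00528). Unlike Saa3 it was not called lower at day 20 than at day 5, with a difference of 0.48 (95% interval -0.73 to 1.68, adjusted p = 0.633). With the 3′ to 5′ ratios in the model the day 5 difference was 1.49 (adjusted p = 0.0797) and that of day 60 was 1.30 (0.205).

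For S100a9, control flank ran from 9.86 to 12.10 (median 10.48). Untreated flank ran from 11.19 to 14.83 at day 5 (median 12.05), from 11.39 to 15.74 at day 20 (median 13.10) and from 10.97 to 16.68 at day 60 (median 12.71). All 3 groups overlapped with control, yet every untreated array lay above the control mean of 10.66. The differences were 1.85 ± 0.77 at day 5 (adjusted p = 0.0371), 2.80 ± 0.77 at day 20 (0.00224) and 2.49 ± 0.77 at day 60 (0.00835). The day 5 call was lost without any 1 of untreated arrays 3, 4 and 7 or control arrays Normal_095, Normal_096, Normal_097, Normal_101 and Normal_102 (differences 1.52 to 1.83, adjusted p 0.0502 to 0.100). With adjacent arrays averaged its adjusted p was 0.0920. With the 3′ to 5′ ratios in the model the differences at days 5 and 60 were 1.51 (adjusted p = 0.177) and 1.76 (0.180).

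G6 gave the highest group mean of both genes at day 20. S100a8 with G6 ran from 14.92 to 16.75 at day 20 (median 16.08), after 12.09 to 16.55 at day 5 (median 14.56) and before 13.27 to 16.85 at day 60 (median 15.47). S100a9 with G6 ran from 11.30 to 16.48 (median 13.91), from 14.50 to 16.68 (median 15.98) and from 11.21 to 16.93 (median 15.05) at days 5, 20 and 60. The day 20 arrays were therefore high throughout, whereas those of days 5 and 60 were widely spread. At day 20 G6 stood above untreated tissue by 1.90 ± 0.60 for S100a8 (adjusted p = 0.0323) and by 2.38 ± 0.77 for S100a9 (0.0358), with all 8 arrays above the untreated mean in both. The S100a8 call was lost without any 1 of arrays 52, 55, 56, 57, 59, 61 and 63 (differences 1.74 to 1.87, adjusted p 0.0507 to 0.0878). That of S100a9 was lost without any 1 of arrays 52, 54, 55, 56, 57, 59, 61 and 63 (2.08 to 2.32, adjusted p 0.0570 to 0.0876). Without untreated arrays 51 and 52 together the differences were 2.00 (adjusted p = 0.118) and 2.54 (0.122), and with the 3′ to 5′ ratios that of S100a9 was 2.36 (0.0512). No label ties arrays of adjacent running numbers to an animal. With such arrays averaged in pairs, the adjusted p was 0.121 for S100a8 and 0.129 for S100a9, and G6 then raised only Saa3 of the 10 genes.

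DC101 gave S100a8 levels of 12.47 to 15.71 at day 5 (median 13.53), 13.13 to 16.17 at day 20 (median 14.67) and 12.45 to 15.76 at day 60 (median 13.53). S100a9 ran from 11.78 to 15.34 (median 12.71), from 11.56 to 15.70 (median 14.02) and from 11.88 to 15.69 (median 12.50). None of the 6 DC101 differences from untreated tissue passed the test, and they lay between -0.23 and 0.58. At day 20 the intervals were -0.76 to 1.65 for S100a8 and -1.19 to 1.87 for S100a9.

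Il1b encodes interleukin-1 beta, the early cytokine of inflamed tissue made chiefly by myeloid cells. Control flank ran from 8.56 to 10.02 (median 9.03), and untreated flank from 10.59 to 11.11 at day 5 (median 10.78), 9.03 to 11.24 at day 20 (median 9.93) and 9.41 to 11.86 at day 60 (median 9.61). The day 5 arrays were tightly grouped (SD 0.18) and all above control. The difference was 1.70 ± 0.33 at day 5 (3.25-fold, adjusted p = 1.21e-05), 0.86 ± 0.33 at day 20 (0.0319) and 0.81 ± 0.33 at day 60 (0.0503). The day 20 call was lost without array 56, Normal_096 or Normal_101 (differences 0.67 to 0.79, adjusted p 0.0624 to 0.107), and also with adjacent arrays averaged (0.0668), with quantile normalization (0.0654) and without arrays 51 and 52 (0.0578). The day 60 difference passed without any 1 of arrays 73, 74, 76, 78, Normal_098 and Normal_099 (0.85 to 0.94, adjusted p 0.0252 to 0.0459), and without array 75 it was 0.53 (0.201).

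With G6, Il1b ran from 9.36 to 12.42 at day 5 (median 10.37), from 9.22 to 11.84 at day 20 (median 11.10) and from 9.32 to 11.38 at day 60 (median 9.80). With DC101 it ran from 9.19 to 11.31 (median 9.89), from 9.23 to 10.48 (median 9.59) and from 8.73 to 9.87 (median 9.19). Each of these groups overlapped with the untreated group of its day. The G6 difference at day 20 was 0.94 (adjusted p = 0.0555), and it passed without array 56, 58, 62 or 64 (1.03 to 1.18, adjusted p 0.0118 to 0.0466), with array weights (1.12, 0.00416) and with quantile normalization (0.97, 0.0469). The change in the G6 difference from day 5 to day 20 was 1.20 (adjusted p = 0.0891), and it passed with array weights (1.44, 0.00532), without arrays 13 and 14 (1.66, 0.0142) and without array 13 or 64 alone (1.47, 0.0275, and 1.45, 0.0287). DC101 differed by -0.74 at day 5 (adjusted p = 0.132), -0.25 at day 20 (0.716) and -0.72 at day 60 (0.180).

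Il6 encodes interleukin-6, the cytokine that drives the acute-phase response through STAT3. It was not above the filter on any control array (6.83 to 8.10, median 7.41), and was above it on all 8 untreated arrays at day 5 (8.99 to 10.34, median 9.72). At day 20 it was above the filter on 2 untreated arrays (7.72 to 9.28, median 8.21) and at day 60 on 1 (7.16 to 9.72, median 7.64). Il6 was thus a bright transcript of day 5 tissue that was dim in most tissue later. Set against the filter level, the day 5 mean was at least 2.52-fold higher than control, and the measured difference was 2.31 ± 0.36 (adjusted p = 1.53e-07). At day 20 the difference was 0.86 ± 0.36 (adjusted p = 0.0498), a call lost without any 1 of arrays 49, 51, 52, 55, 56, Normal_097, Normal_099, Normal_100, Normal_101 and Normal_102 (0.73 to 0.90, adjusted p 0.0509 to 0.121) and under 8 other settings, the 3′ to 5′ ratios among them (0.86, 0.0568). The mean of both groups lay under the filter level, so no fold is given. At day 60 it was 0.40 (adjusted p = 0.409). The step from day 5 to day 20 was -1.44 ± 0.36 (adjusted p = 0.00234), with all 8 arrays below the day 5 mean.

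With G6, Il6 ran from 7.96 to 11.45 at day 5 (median 9.54), 7.76 to 9.41 at day 20 (median 8.94) and 7.17 to 9.57 at day 60 (median 8.08). With DC101 it ran from 8.70 to 9.94 (median 9.46), 7.32 to 8.48 (median 7.86) and 6.51 to 9.92 (median 8.00). In each treatment arm the median was highest at day 5. No antibody difference passed, and the 6 lay between -0.47 and 0.33 (adjusted p between 0.470 and 0.752).

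Cxcl1 and Cxcl5 encode chemokines that attract neutrophils through CXCR2. The brightest Cxcl1 probe set (1441855_x_at) ran from 10.17 to 10.87 in control (median 10.59), and in untreated flank from 11.13 to 11.76 at day 5 (median 11.45), 10.87 to 11.83 at day 20 (median 11.44) and 9.82 to 12.02 at day 60 (median 11.36). Control did not overlap with day 5, and it did not overlap with day 20 either, since the lowest day 20 array lay just above the highest control array. The differences were 0.85 ± 0.23 (adjusted p = 0.00125), 0.79 ± 0.23 (0.00404) and 0.56 ± 0.23 (0.0494). The day 60 call was lost without any 1 of arrays 73, 74, 75, 77, 80, Normal_097, Normal_098, Normal_099, Normal_100, Normal_101 and Normal_102 (0.43 to 0.57, adjusted p 0.0562 to 0.141) and with the 3′ to 5′ ratios (0.52, 0.188), among other settings.

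The other Cxcl1 probe sets gave larger day 5 differences and a steeper time course. Probe set 1419209_at was not above the filter on any control array (7.59 to 8.34) and ran from 10.38 to 11.07 in day 5 untreated tissue. That was at least 4.78-fold higher than control, with a fitted difference of 2.65 (adjusted p = 9.12e-06). Probe set 1457644_s_at differed by 1.72 (adjusted p = 1.52e-05). At day 20 they differed from control by 0.82 (adjusted p = 0.202) and 0.59 (0.170), and they fell from day 5 by -1.83 (0.00641) and -1.13 (0.0116). The brightest probe set differed by -0.06 over that step (adjusted p = 0.888), so the 3 probe sets disagree about whether Cxcl1 stayed high.

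With G6, the brightest Cxcl1 probe set ran from 10.90 to 12.62 (median 11.91), 10.71 to 12.11 (median 11.68) and 10.23 to 12.38 (median 10.71) at days 5, 20 and 60. With DC101 it ran from 11.19 to 12.09 (median 11.64), 10.31 to 11.67 (median 11.10) and 10.53 to 12.08 (median 10.98). No antibody difference passed for this probe set. For 1419209_at, G6 at day 20 was 1.52 above untreated tissue (adjusted p = 0.0487).

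Cxcl5, which epithelial cells make in response to interleukin-1, was not above the filter on any control array (4.87 to 6.70, median 5.82). In untreated flank it was above it on all 8 arrays at day 5 (9.08 to 11.46, median 9.86), on 1 at day 20 (4.46 to 9.84, median 7.26) and on 1 at day 60 (5.20 to 11.25, median 6.92). The day 5 mean was at least 2.78-fold higher than control set to the filter level, and the fitted difference from the dim control arrays was 4.08 ± 0.74 (adjusted p = 2.64e-06). The later differences were 1.44 (adjusted p = 0.111) and 1.33 (0.151), the first of which passed without array 54 (1.85, adjusted p = 0.0387). Day 20 stood below day 5 by -2.64 ± 0.74 (adjusted p = 0.00629).

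With G6, Cxcl5 ran from 5.92 to 12.70 at day 5 (median 9.97, above the filter on 6 arrays), from 6.31 to 11.71 at day 20 (median 9.57, on 6 arrays) and from 5.01 to 10.01 at day 60 (median 6.02, on 1 array). With DC101 it ran from 7.90 to 11 (median 10.00), 4.94 to 8.99 (median 7.57) and 6.16 to 7.65 (median 6.84). At day 20 G6 was therefore again the arm with most bright arrays. The difference of 2.16 ± 0.74 from untreated tissue passed (adjusted p = 0.0466), with 7 of 8 arrays above the untreated mean. It was lost without any 1 of arrays 50, 52, 53, 54, 55, 56, 57, 58, 59, 61 and 63 (1.76 to 2.26, adjusted p 0.0512 to 0.122). The adjusted p was 0.141 with adjacent arrays averaged, 0.106 with only the groups compared, 0.0880 without arrays 51 and 52, 0.0758 with the 3′ to 5′ ratios and 0.0558 with no filter.

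Csf3r encodes the G-CSF receptor of neutrophils and their precursors. Control ran from 8.16 to 9.76 (median 9.34), and untreated flank from 9.37 to 10.12 at day 5 (median 9.89), 9.45 to 10.59 at day 20 (median 9.63) and 7.58 to 10.26 at day 60 (median 9.32). All untreated arrays of days 5 and 20 lay above the control mean of 9.18, but the ranges overlapped. The differences were small: 0.65 ± 0.23 (adjusted p = 0.0142), 0.56 ± 0.23 (0.0430) and 0.06 (0.870). The day 5 call was lost without control array Normal_102 (0.50, adjusted p = 0.0640) and with the 3′ to 5′ ratios in the model (0.57, 0.0857). The day 20 call was lost without any 1 of arrays 51, 52, 53, 56, Normal_096, Normal_097, Normal_100 and Normal_102 (0.42 to 0.58, adjusted p 0.0513 to 0.156) and under 7 other settings, such as quantile normalization (0.45, 0.112) and the 3′ to 5′ ratios (0.54, 0.0590).

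The highest Csf3r mean was that of G6 at day 5, with arrays from 9.80 to 11.16 (median 10.44). That was 0.59 ± 0.23 above untreated tissue (adjusted p = 0.0432), with 6 of 8 arrays above the untreated mean. The call was lost without any 1 of arrays 1, 2, 4, 5, 6, 8, 12, 13, 14, 15 and 16 (0.48 to 0.60, adjusted p 0.0515 to 0.112), without arrays 13 and 14 the difference was 0.39 (0.226), and with the 3′ to 5′ ratios it was 0.54 (0.0832). G6 ran from 9.05 to 10.94 at day 20 (median 9.69) and 8.74 to 9.71 at day 60 (median 9.41), and DC101 from 9.32 to 10.25 (median 9.78), 9.0 to 9.94 (median 9.28) and 9.15 to 9.90 (median 9.64). None of the other 5 antibody differences passed, and they lay between -0.35 and 0.33.

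Ptgs2 encodes cyclooxygenase-2, the inducible enzyme of prostaglandin synthesis. Control ran from 8.04 to 9.28 (median 8.87). Untreated flank ran from 9.61 to 10.25 at day 5 (median 10.05), from 7.42 to 9.16 at day 20 (median 8.74) and from 9.58 to 10.55 at day 60 (median 9.95). Ptgs2 was thus high at day 5, back near the control range at day 20 and high again at day 60, with no overlap between day 20 and either neighbour. It was 1.24 ± 0.33 above control at day 5 (2.36-fold, adjusted p = 0.000944) and 1.22 ± 0.33 above it at day 60 (0.00237), and differed by -0.11 at day 20 (0.819). The steps were -1.35 ± 0.33 from day 5 to day 20 (adjusted p = 0.00147) and 1.33 ± 0.33 from day 20 to day 60 (0.00139). These calls held without any 1 array. With the 3′ to 5′ ratios in the model the differences from control at days 5 and 60 were 0.51 (adjusted p = 0.244) and 0.77 (0.127), and the step to day 20 was -0.78 (0.105). The second Ptgs2 probe set (1417263_at) was above the filter on 1 of 78 arrays and was not tested.

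Ptgs2 was also the gene that both antibodies lowered at day 5. With G6 it ran from 7.57 to 10.46 (median 8.86) and with DC101 from 7.35 to 9.36 (median 8.79), against 9.61 to 10.25 in untreated tissue. Every DC101 array lay below every untreated array, and 7 of 8 G6 arrays lay below the untreated mean. DC101 differed by -1.39 ± 0.33 (2.62-fold lower, adjusted p = 0.00222) and G6 by -1.03 ± 0.33 (2.05-fold lower, adjusted p = 0.0108). With adjacent arrays averaged the adjusted p of G6 was 0.0532. The DC101 difference was -0.86 with the 3′ to 5′ ratios in the model (adjusted p = 0.0899). At day 20 Ptgs2 ran from 8.43 to 10.30 with G6 (median 9.51) and from 7.86 to 9.73 with DC101 (median 9.17), and at day 60 from 8.65 to 11.49 (median 10.74) and from 8.50 to 10.28 (median 9.17). The differences from untreated tissue were then 0.78 (adjusted p = 0.116) and 0.43 (0.450) at day 20 and 0.44 (0.408) and -0.61 (0.252) at day 60, and with the 3′ to 5′ ratios that of G6 at day 20 was 0.94 (0.0448). The change between day 5 and day 20 passed its own test for both antibodies: 1.82 ± 0.46 for G6 (adjusted p = 0.00835) and 1.82 ± 0.46 for DC101 (0.0186). Both rest on the same untreated arrays, and that of DC101 was 1.58 without untreated arrays 51 and 52 (0.0778) and 1.20 with the 3′ to 5′ ratios (0.261). With adjacent arrays averaged the adjusted p was 0.0651 for G6 and 0.171 for DC101.

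Lcn2 encodes lipocalin 2, which binds bacterial siderophores and is made by neutrophils and by epithelia, the mammary gland among them. Against control it was lower at each day, while the other genes called were higher. Control arrays read 14.69, 13.89, 13.62, 11.26, 13.26, 12.63, 13.64 and 11.22. Untreated flank ran from 10.26 to 12.06 at day 5 (median 10.96), from 9.40 to 12.20 at day 20 (median 10.70) and from 8.93 to 13.17 at day 60 (median 10.16). Of the control arrays, 6 lay above every untreated array of days 5 and 20, and the other 2 lay among them. Untreated tissue stood below control by -2.05 ± 0.59 (adjusted p = 0.00250), -2.30 ± 0.59 (0.00116) and -2.56 ± 0.59 (0.000483).

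Milk protein genes were high in control tissue too. Csn1s2a, a casein gene, averaged 13.11 ± 3.14 (SD, n = 8) in control flank, and 8 of 8 mammary gland markers, a list written down after the data were seen, were lower in untreated tissue at each day. The list mean ran from 9.45 to 14.20 over the control arrays, and its group medians elsewhere ran from 7.29 to 7.88. The control arrays lowest in that list, Normal_098 with 9.45 and Normal_102 with 10.15, were also the arrays lowest in Lcn2. Around group means over all 78 arrays, Lcn2 correlated with the mammary list at 0.21 and with the acute-phase list at 0.69. Its correlation with each of the other genes of the set lay between 0.28 and 0.65. The part of mammary tissue in the Lcn2 result was not tested.

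With G6, Lcn2 ran from 8.71 to 13.19 (median 11.35), 10.18 to 13.20 (median 12.02) and 10.12 to 14.30 (median 11.82) at days 5, 20 and 60. With DC101 it ran from 10.31 to 12.36 (median 11.62), 9.80 to 13.01 (median 11.49) and 10.26 to 13.22 (median 11.20). All 6 antibody differences were positive, from 0.27 to 1.48, and none passed. The largest, G6 at day 60, had an adjusted p of 0.0894 and passed without untreated array 75 (1.86, adjusted p = 0.0343).

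Counted by comparison, G6 changed 2 of the 10 genes at day 5, Csf3r up and Ptgs2 down, where 31.7% of all genes were called, and the median difference was 0.08 against 0.01 over all genes. At day 20 it raised 4 (Saa3, S100a8, S100a9 and Cxcl5) and lowered 0, with a median of 1.04 against -0.01, where 9.98% of all genes were called and 3.97% as higher. At day 60 it changed 0 (limma, with 2 at an unadjusted p under 0.05), where 11.9% of all genes were called, and the median was 0.34 against -0.02. DC101 lowered 1 gene at day 5 (Ptgs2), where 11.8% of all genes were called (7.11% lower) and 3.49% did not overlap, and 2 genes had an unadjusted p under 0.05. It changed 0 at day 20 (limma, 0 at an unadjusted p under 0.05), where 7.69% of all genes were called, and 0 at day 60 (1 at an unadjusted p under 0.05), where 11.6% were called. The comparisons of a day share the untreated arrays of that day.

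**Figure D3:**
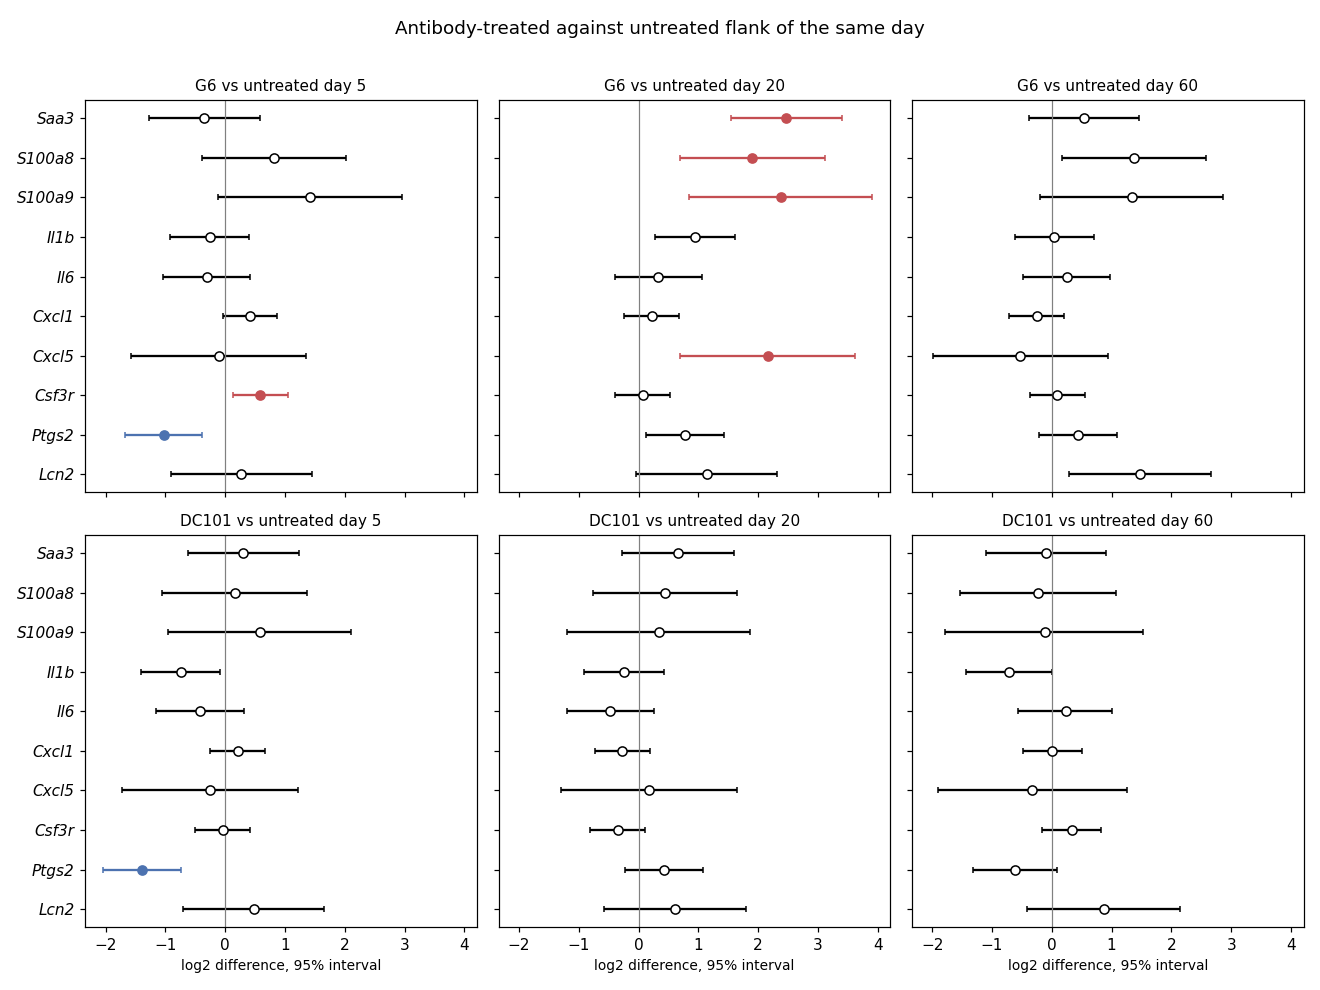
Difference in log2 level between antibody-treated and untreated virus-injected flank of the same day, G6 in the upper row and DC101 in the lower row, with 95% intervals from limma; filled points passed an adjusted p of 0.05 (red higher, blue lower). Only G6 at day 20 shows 4 filled points on the higher side, and Ptgs2 is filled on the lower side for both antibodies at day 5.

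The antibodies were also compared with each other, at unequal doses of 10 mg/kg for G6 and 20 mg/kg for DC101, so dose and antibody cannot be told apart. At day 5, 0 of the 10 genes differed (limma, 1 at an unadjusted p under 0.05), where 11.5% of all genes were called. That gene was Csf3r, 0.63 higher with G6 (adjusted p = 0.0633), with all 8 G6 arrays above the DC101 mean. It passed without array 10, 11 or 18 (0.69 to 0.72, adjusted p 0.0399 to 0.0483) and with only the groups compared (0.63, 0.0390). At day 20, 0 differed although 7 had an unadjusted p under 0.05, and the median difference was 0.99 against -0.01. Only 0.245% of all genes were called there. Saa3 was 1.81 higher with G6 (95% interval 0.88 to 2.74, adjusted p = 0.0592), and it passed without array 60, 62, 64 or 71 (1.84 to 2.13, adjusted p 0.0116 to 0.0442) and with the 3′ to 5′ ratios (2.22, 0.00906). S100a9 was 2.04 higher (0.50 to 3.57, 0.218), Cxcl5 1.99 higher (0.52 to 3.45, 0.207) and Il1b 1.19 higher (0.53 to 1.85, 0.0852). At day 60, 2 genes were higher with G6, where 40.5% of all genes were called (18.6% higher): S100a8 by 1.61 ± 0.65 (adjusted p = 0.0422) and Ptgs2 by 1.05 ± 0.35 (0.0135). The S100a8 call was lost without any 1 of arrays 85, 86, 87, 88, 90, 91, 92 and 94 (1.37 to 1.67, adjusted p 0.0558 to 0.118) and that of Ptgs2 without array 92 (0.88, 0.0571). With the 3′ to 5′ ratios in the model, the S100a8 and Ptgs2 differences were 0.40 (0.915) and 0.75 (0.547). The median Actb ratio was highest in G6 tissue at day 60, and the median Gapdh ratio in G6 tissue at day 5.

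Over the days, untreated tissue at day 20 was lower than at day 5 in 4 genes (Saa3, Cxcl5, Il6 and Ptgs2), where 20.2% of all genes were called (9.78% lower). Saa3 and Ptgs2 did not overlap between the days (7.39% of all genes). The median was -0.54 against 0.01. From day 20 to day 60 only Ptgs2 rose, where 25.7% of all genes were called (11.9% higher) and 2.99% did not overlap, and the median was -0.24 against 0.02. The G6 difference changed from day 5 to day 20 in 2 genes, Saa3 and Ptgs2, where 9.17% of all genes were called (4.07% higher), and that of DC101 in 1, Ptgs2, where 1.81% were called (0.910% higher). From day 20 to day 60 both differences changed in 0 genes (limma, each with 2 at an unadjusted p under 0.05), where 0.0747% of all genes were called for G6 and 18.2% for DC101.

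Ordered by group mean, the 10 groups of a gene mostly formed a continuum. Of the 9 gaps between neighbouring groups, 1 exceeded the larger SD of the pair for S100a8, S100a9, Il1b, Cxcl5, Il6 and Csf3r, and 0 did for Saa3, Cxcl1, Lcn2 and Ptgs2. For S100a8 and S100a9 that gap set control (11.82 ± 0.66 and 10.66 ± 0.75, SD, n = 8) apart from the lowest virus-injected group. For Il6 it set the 3 day 5 groups, with means of 9.35 to 9.77, apart from all the others. For Cxcl5 it lay below 4 groups, the 3 of day 5 and G6 at day 20, with means of 9.43 to 9.91. Single G6 arrays of days 5 and 20 read as low as 5.92 and 6.31, within the range of the rest. For Saa3 the same 4 groups stood at the top, with means of 12.37 to 13.03, and the next group was DC101 at day 20 with 11.17.

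Genes of other neutrophil and inflammation lists were read from the same fit, as counts of members tested, beside the share of all 14718 genes called. That share was 27.9% higher and 24.9% lower for untreated tissue against control at day 5, 22.7% and 18.4% at day 20, and 18.7% and 16.9% at day 60. Of 15 genes listed as neutrophil surface genes, 12 were higher and 1 lower in untreated tissue than in control at day 5 (median 1.27), 10 and 0 at day 20 (0.72), and 4 and 0 at day 60 (0.48). Clec4d, a lectin receptor of myeloid cells, was above the filter on 0 control arrays and on 8 of 8 at day 5, at least 6.78-fold higher (adjusted p = 7.15e-15), and Il1r2, the decoy receptor for interleukin-1, was lower by -1.37 (0.000175). Of 13 granule and enzyme genes, 8 were higher and 2 lower at day 5 (median 0.83), 4 and 2 at day 20 (0.07), and 3 and 3 at day 60 (0.10). Cybb, the NADPH oxidase subunit shared by neutrophils and macrophages, was 2.05 higher at day 5 (adjusted p = 4.55e-12), and Ltf, lactoferrin of granules and of milk, was lower by -1.32 (0.00668). At day 20, where G6 raised S100a8 and S100a9, it changed 0 of the 13 granule genes (limma, 0 at an unadjusted p under 0.05), where 9.98% of all genes were called. Of those 13, 5 (Elane, Prtn3, Camp, Mpo and Ltf) had a mean under the filter level in that G6 group. Of the 15 genes of the surface list it raised 0 (2 at an unadjusted p under 0.05) and lowered 1, Slfn4, by -0.93 (adjusted p = 0.0131), against 6.01% of all genes lowered. Slfn4 itself encodes an intracellular protein.

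Of 6 further neutrophil-attracting chemokines, 4 were higher and 1 lower than control at day 5 (median 1.35), among them Ccl3 and Cxcl15. Ccl3 was above the filter on 0 control arrays and on 7 at day 5, at least 1.51-fold higher (adjusted p = 7.89e-08). Cxcl15 was above it on all 8 control arrays and on 0 at day 5, at least 2.49-fold lower (9.33e-07). The counts were 2 and 1 at days 20 and 60. G6 at day 20 raised 2, the CXCR2 ligands Cxcl2 and Cxcl3, where 3.97% of all genes were called higher. Cxcl2 was above the filter on 0 untreated and 5 G6 arrays, at least 1.73-fold higher (adjusted p = 0.0389). Cxcl3 was above it on 0 untreated and 4 G6 arrays (0.0193), with the mean of both groups under it, so no fold is given. Its mean was under the filter level in all 10 groups. Those 4 arrays count towards the 6 that the filter asks for, so its call and the count of 2 rest in part on that selection. G6 lowered Ppbp, a platelet chemokine, by -1.47 (0.0186). Of 4 colony-stimulating factor genes tested, 4 were higher at day 5 and 3 at day 20, among them Csf1r, the receptor for M-CSF, by 1.34 at day 5 (8.84e-11). Csf3, the ligand of Csf3r, did not pass the filter.

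Of 14 other acute-phase genes tested, most of them known as liver products, 0 were higher (limma, 0 at an unadjusted p under 0.05) and 5 lower than control at day 5 (median -0.31), 1 and 2 at day 20 (-0.09), and 2 and 1 at day 60 (0.22). Orm1, orosomucoid, was lower by -1.92 at day 5 (adjusted p = 0.00409). Fgg, the fibrinogen gamma chain, was also among the 5, with means under the filter level in both groups. G6 raised 5 and DC101 raised 4 of the 14 at day 5, with 0 lowered by either, where 16.7% and 4.66% of all genes were called higher. Orm1 was 1.90 higher with G6 (adjusted p = 0.00908), and Mt1, a metallothionein, was 1.48 higher with DC101 (6.84e-11) and 1.06 higher with G6 (1.91e-07). At day 20 G6 raised 3, Orm1 by 1.73 (0.0448) among them, and lowered 1, where 3.97% of all genes were higher and 6.01% lower. Around group means, Saa3 correlated with this list at 0.49 over 78 arrays.

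Of 16 interleukin-1 pathway genes, 10 were higher at day 5 and 7 at each later day, with 0 lower (medians 0.43, 0.34 and 0.43). Il1r1, the signalling receptor, was 2.15 above control at day 5 (adjusted p = 2.83e-07) and 2.14 at day 20 (8.62e-07), and Il1rn, the receptor antagonist, was 1.32 above it at day 60 (0.00297). Of 15 genes of the interleukin-6 family, 4 were higher at days 5 and 20, and 0 were higher (limma, 1 at an unadjusted p under 0.05) and 2 lower at day 60. Of all genes, 27.9%, 22.7% and 18.7% were higher at these days, so the counts of this family at days 5 and 20 lay near the background. Osm, a cytokine of that family, was 1.14 higher at day 5 (9.41e-07), and Stat3 was lower by -0.65 at day 60 (0.00281). Of 17 prostanoid and leukotriene genes, 7 were higher and 4 lower at day 5, against 27.9% and 24.9% of all genes, with Alox5ap up by 1.67 (9.31e-08) and the prostaglandin receptor Ptger3 down by -2.44 (1.01e-08). DC101, which lowered Ptgs2 at day 5, changed 0 of these 17 genes at each day by the limma test (4, 4 and 3 at an unadjusted p under 0.05), where 11.8%, 7.69% and 11.6% of all genes were called. Of 6 genes for receptors of S100A8 and S100A9, 2 were higher at day 5, Ly96 by 1.36 (1.08e-08) and Tlr2 by 1.0 (1.03e-06), and 1 was lower, Bsg by -0.79 (8.02e-08). With 27.9% of all genes higher and 24.9% lower, the counts of these receptors lay near the background.

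Markers of other cells also differed between groups. Of all genes, 27.9%, 22.7% and 18.7% were higher in untreated tissue than in control at days 5, 20 and 60. The shares lower were 24.9%, 18.4% and 16.9%. Of 12 macrophage markers, 11 were higher than control at day 5, 6 at day 20 and 9 at day 60, and the list mean had group medians of 11.79 in control and of 13.71, 12.76 and 12.85 in untreated tissue. Of 12 activated keratinocyte markers, 6 were higher and 0 lower at day 5, 5 and 1 at day 20, and 7 and 0 at day 60. G6 at day 20 raised 9 of those 12 and lowered 0, with a median of 2.01 against -0.01 over all genes and 3.97% of all genes called higher. Krt6b, a keratin of stressed epidermis, was 2.55 higher (adjusted p = 0.0187) and Defb3, an epithelial defensin above the filter on 5 untreated and 8 G6 arrays, was 4.00 higher (0.0227). Untreated array 52 was the lowest of its group in this list (8.97) and in the epidermis list (10.86). Without untreated arrays 51 and 52, calls over all genes in this comparison fell from 1469 to 98. The calls of this list are not given without those arrays. The keratinocyte list ran from 11.72 to 14.02 over the G6 arrays of day 20, from 8.97 to 12.89 over the untreated arrays and from 10.96 to 12.92 over the DC101 arrays. The neutrophil surface list ran from 9.29 to 10.18, 8.82 to 10.01 and 8.75 to 9.98 on the same arrays, and the macrophage list from 12.15 to 12.90, 12.20 to 13.12 and 11.83 to 13.40. Of 9 skeletal muscle markers 8 were lower than control in untreated tissue at day 5, and of 7 adipocyte markers 6 were. G6 at day 20 raised 3 of 9 epidermis markers and lowered 5 of 8 endothelial markers, where 9.98% of all genes were called, 3.97% as higher. The part of any of these cells in the results was not tested.

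**Figure D4:**
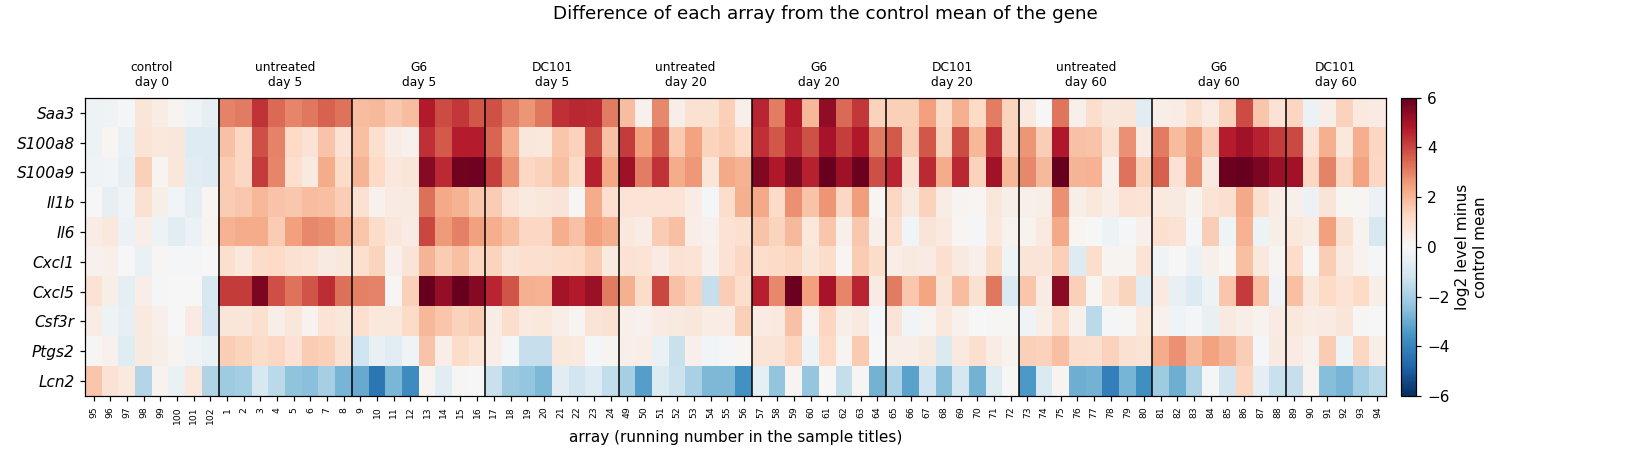
Level of each gene on each of the 78 arrays minus the mean of the 8 control arrays (log2, colour), with arrays in groups and labelled by the running number of their sample title. Arrays 13 to 16 of G6 day 5, array 75 of untreated day 60 and array 86 of G6 day 60 stand out across most rows, and the Lcn2 row is blue in most virus-injected tissue.

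Arrays of 1 group could differ from each other as much as groups did. In G6 tissue at day 5, Saa3 read 11.23, 11.34, 11.02 and 11.23 on arrays 9 to 12 and 14.13, 13.29, 13.62 and 13.10 on arrays 13 to 16. Cxcl5 read 8.85, 8.80, 5.92 and 7.24 and then 12.70, 11.10, 12.44 and 11.34, and S100a8 13.61, 12.79, 12.27 and 12.09 and then 16.18, 15.51, 16.52 and 16.55. Of the 10 genes, arrays 13, 14 and 15 were in the top 4 for 10 each and array 16 for 9. The activated keratinocyte list stood at 10.94, 10.38, 11.94 and 12.20 on arrays 9 to 12 and at 13.24, 12.03, 13.69 and 13.54 on arrays 13 to 16. These ranges overlapped, since array 14 lay below array 12. The neutrophil surface list stood at 10.00, 9.67, 9.79 and 10.02 and then at 10.96, 10.48, 10.49 and 10.21. The epidermis list overlapped as well, at 14.11, 13.46, 14.44 and 14.36 and then at 14.27, 13.08, 14.83 and 14.62. The granule and enzyme list also overlapped, with 9.18 to 9.48 and then 9.18 to 9.69. What sets arrays 13 to 16 apart is not in the labels.

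G6 tissue at day 20 was also uneven between its arrays. Arrays 57, 59, 61 and 63 were in the top 4 of the group for 7, 10, 9 and 10 of the 10 genes, against 3, 0, 0 and 1 for arrays 58, 60, 62 and 64, and array 64 was the lowest for 8. The epidermis list stood at 14.44, 14.73, 14.64 and 14.78 on the first 4 of these arrays and at 13.56, 13.66, 13.66 and 12.91 on the others. The activated keratinocyte list stood at 13.66, 13.69, 14.02 and 13.88 and at 12.83, 12.36, 13.13 and 11.72 on the same arrays. In both lists the ranges did not overlap, unlike those of the G6 arrays of day 5. The Cxcl1 probe set 1419209_at read 11.32, 11.60, 10.95 and 11.68 and then 10.02, 9.39, 9.13 and 9.0. The neutrophil surface list stood at 9.83, 10.18, 10.05 and 9.86 on arrays 57, 59, 61 and 63. It stood at 9.45, 9.67, 9.29 and 9.34 on arrays 58, 60, 62 and 64. The granule and enzyme list overlapped, with 8.74 to 9.24 and 8.73 to 9.11, and so did the macrophage list, with 12.15 to 12.66 and 12.17 to 12.90. The part of the epidermis or of neutrophils in the G6 differences of day 20 was not tested.

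In untreated tissue at day 60, array 75 was the highest of the group for all 10 genes. Its Cxcl5 level was 11.25 where the others ran from 5.20 to 7.48, its Saa3 level 12.61 where the others ran from 8.71 to 10.43, and its Il1b level 11.86 where the others ran from 9.41 to 9.95. Without it the differences from control at day 60 were 1.68 for S100a8 (adjusted p = 0.0252), 1.98 for S100a9 (0.0374), -2.95 for Lcn2 (7.77e-05) and 1.14 for Ptgs2 (0.00656), so these calls held, and that of Cxcl1, 0.43, was lost (0.141). Saa3 and Cxcl5 then differed from control by 0.38 (0.544) and 0.75 (0.434). Without array 75, G6 at day 60 stood above untreated tissue in S100a8 by 1.77 (0.0492) and in Lcn2 by 1.86 (0.0343), and Csf3r fell from day 20 to day 60 by -0.65 (0.0300). In G6 tissue at day 60, array 86 was highest for 8 of the 10 genes.

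**Figure D5:**
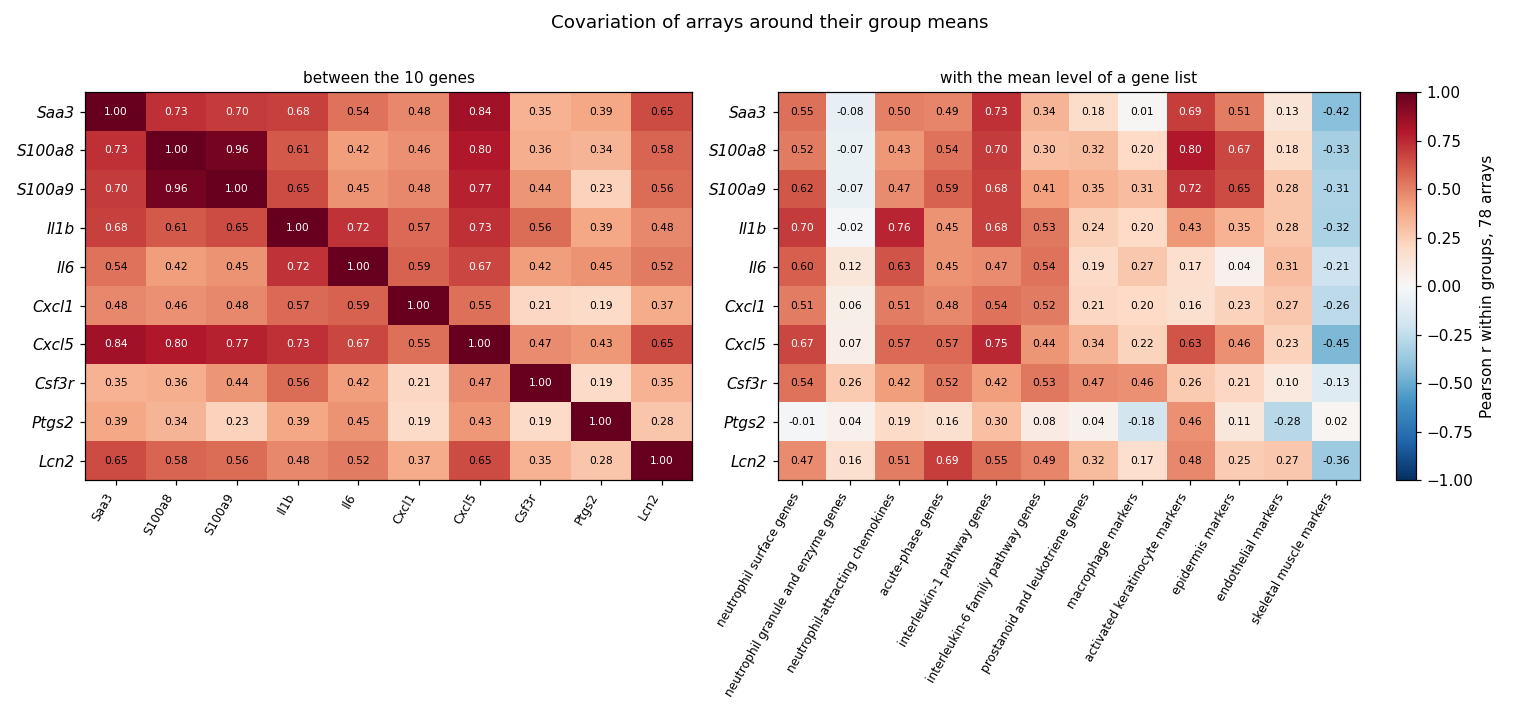
Pearson correlation of array levels after subtraction of each group mean, over 78 arrays, between the 10 genes (left) and between each gene and the mean level of a gene list (right); the values are printed in the cells. S100a8 and S100a9 are paired at 0.96, Ptgs2 has the weakest links, and the neutrophil granule column is near 0 for most genes. Several genes of the granule list, Elane and Camp among them, were dim.

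After group means were removed, S100a8 and S100a9 moved together most closely (r = 0.96 over 78 arrays). Saa3 went with Cxcl5 (0.84), S100a8 with Cxcl5 (0.80) and Saa3 with S100a8 (0.73). Il1b went with Il6 (0.72) and with the chemokine list (0.76). Ptgs2 stood apart, with r between 0.19 and 0.45 to the other 9 genes. S100a8 correlated at 0.80 with the activated keratinocyte list, at 0.52 with the neutrophil surface list and at -0.07 with the neutrophil granule list. Il1b correlated at 0.43, 0.70 and -0.02 with the same lists. By group, 8 to 11 of the 12 keratinocyte genes, 8 to 12 of the 15 surface genes and 8 to 10 of the 13 granule genes had means above the filter level. Each list mean therefore rests in part on dim probe sets. The cells that S100a8 came from were not tested. These are descriptions, since the arrays share tissue, scaling and the outlying arrays named above.

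By the likeness of the 10 group means, taken over genes whose means span at least 1 log2, Saa3 was closest to Cxcl5 (r = 0.961), to Gzmc, a granzyme (0.946), and to Coro2a (0.902). S100a8 was closest to S100a9 (0.991), the Sprr2 family pseudogene Sprr2j-ps (0.978) and Defb3 (0.977), and S100a9 to S100a8, Defb3 (0.986) and Sprr2j-ps (0.978). Il1b was closest to Fosl1, an AP-1 subunit (0.959), and Ikbke, a kinase of innate immunity (0.933). Cxcl1 was closest to Adam8, a leukocyte protease (0.972), and Myo1g (0.970), and Il6 to Sh3bgrl3 (0.977) and Actr3 (0.965). Csf3r was closest to H2-Ob (0.975), Adam8 (0.956) and Fgr, a kinase of myeloid cells (0.954). Ptgs2 had no very close gene, with Slc39a6 at 0.914. Lcn2 was closest to Prorp (0.938) and Echdc2 (0.901), and the milk protein gene Wap was the third (0.881).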

How the data were processed

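RNA from flank tissue was hybridised to 78 Affymetrix mouse arrays. The deposited intensity of each probe set is a linear signal that the authors computed with MAS5 (GCOS 1.3), per the submitters' processing notes. From these, log2(signal + 16) was computed. Probe sets with 1 gene symbol in the platform annotation (34958 of 45101; 932 have several, 9211 are unnamed here) had to reach a signal over 331 (percentile 40 of the table) on 6 or more arrays, and 26696 passed. The brightest probe set stood for each of 14718 genes.

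One limma (3.58.1, R 4.3.3) model with a mean for each of 10 groups, eBayes with an intensity trend and Benjamini-Hochberg adjustment over all genes gave 18 two-sided comparisons at 0.05. Differences are log2 with SE; the pseudocount understates changes of dim genes. Where a whole group was under the filter, a bound is the brighter mean over the filter level. Precision is limited by the number of arrays. The highest correlation between 2 arrays was 0.972, so none was a copy. Promoters came from RefSeq tables (GRCm38.p6), matched by symbol.

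Named genes are the 10 members, the 2 largest called changes in each direction of each gene list in a main comparison, and the 3 genes most like each member over group means, passing over clone and predicted genes; the text gives those that carry a comparison. The members and lists were chosen with earlier results of these data known, and no list holds a member. Alternatives tried were quantile normalization, no filter, pseudocounts of 1 and 64, array weights, a mean over a gene's probe sets, a fit on only the groups compared, 3′ to 5′ ratios of Actb and Gapdh as covariates, adjacent arrays averaged, named arrays left out, other probe sets and, chosen after seeing the data, each array left out in turn.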

Additional observations from a re-analysis of the deposited data

Results flagged for a closer look

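A sample far from the rest of its group was found in 14 of 130 group and probe set combinations; chance gives about 1 in 20. Of these, 6 belonged to array 75 of untreated tissue at day 60: Saa3 12.61 (others 8.71 to 10.43), Il1b 11.86 (9.41 to 9.95), Cxcl5 11.25 (5.20 to 7.48), Il6 9.72 (7.16 to 8.06), and the Cxcl1 probe sets 1457644_s_at, 11.72 (9.02 to 9.82), and 1419209_at, 11.91 (7.66 to 8.81). Array 86 of G6 tissue at day 60 stood above its group in Saa3, 13.29 (9.74 to 11.04), Il1b, 11.38 (9.32 to 10.07), and Cxcl1, 12.38 (10.23 to 11.20). Array 3 of untreated tissue at day 5 stood above its group in Saa3, 13.72 (12.33 to 12.92), and array 56 of untreated tissue at day 20 in Csf3r, 10.59 (9.45 to 9.84).

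Ptgs2 was low on single arrays: array 52 of untreated tissue at day 20 read 7.42 (others 8.36 to 9.16) and, by the second probe set, 5.21 (6.93 to 7.88), and array 68 of DC101 tissue at day 20 read 7.86 (8.94 to 9.73).

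Antibody differences that changed between day 5 and day 20 by a test of the change itself (limma) were those of G6 on Saa3 (2.82, adjusted p = 0.00432), of G6 on Ptgs2 (1.82, 0.00835) and of DC101 on Ptgs2 (1.82, 0.0186). No explanation of these values was tested.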

How the results depend on the processing

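Of 5356 values of the 10 genes under the alternatives, 0 reversed in direction while called, 5134 kept their side of the threshold, 171 lost a call and 51 gained one. No paired analysis was possible because every array has a running number of its own and no 2 groups share 1.

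Counts of genes called out of 10 moved by more than 1.5 times as follows; the cause was not tested. With 3′ to 5′ ratios as covariates, untreated against control gave 6, 5 and 1 at days 5, 20 and 60 (10, 8 and 5 before), G6 against untreated 1 at day 5 (2), DC101 against untreated 0 at day 5 (1), G6 against DC101 1 at day 20 (0) and 0 at day 60 (2), and the DC101 change from day 5 to day 20 gave 0 (1). Untreated against control at day 20 gave 5 with no filter, 4 with quantile normalization, 5 with array weights, 4 with adjacent arrays averaged and 4 without arrays 51 and 52. G6 against untreated gave 1 at day 5 with no filter, 0 with adjacent arrays averaged and 1 without arrays 13 and 14, and at day 20 it gave 1 (4 before) with adjacent arrays averaged and 1 without arrays 51 and 52. With only the groups compared, DC101 against untreated gave 2 at day 5 and G6 against DC101 1 at day 5 and 0 at day 60. G6 against DC101 at day 60 gave 1 with no filter, 1 with quantile normalization and 0 with adjacent arrays averaged. With array weights, G6 against DC101 gave 2 at day 20, the G6 changes gave 4 (day 5 to 20) and 2 (day 20 to 60), and the DC101 change from day 20 to 60 gave 1. With adjacent arrays averaged the changes from day 5 to 20 gave 1 for G6 and 0 for DC101, and without arrays 51 and 52 that of DC101 gave 0. Over all genes, G6 against DC101 at day 60 fell from 5955 calls to 0 with the ratios, untreated day 60 against control from 5241 to 2358, and G6 against untreated at day 20 from 1469 to 98 without arrays 51 and 52 and to 516 with adjacent arrays averaged.

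With each array left out in turn, 27 of 40 calls were kept without any 1 array and 13 were lost without some array. Counts ran from 8 to 10, 5 to 9 and 4 to 6 for untreated against control at days 5, 20 and 60, from 1 to 2, 1 to 5 and 0 to 2 for G6 against untreated, and were 1, 0 and 0 for DC101. They ran from 4 to 5 and 1 to 2 for the steps between days, from 0 to 1, 0 to 2 and 0 to 2 for G6 against DC101, and from 2 to 3, 0 to 0, 1 to 1 and 0 to 0 for the changes in the G6 and DC101 differences. Dim probe sets limit Cxcl5, Il6 and the second Ptgs2 probe set.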
